A study of Mus musculus with 30 samples.

Results

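E proteins, the Id inhibitors and their basic helix-loop-helix partners were followed through blood progenitors of mouse bone marrow as 9 genes: Id1, Id2 and Id3, the E protein genes Tcf3, Tcf4 and Tcf12, the partner genes Tal1 and Lyl1, and the repressor gene Hes1. They were taken by symbol from 24421 listed genes, and all 9 were found; each is a protein-coding gene, placed below on GRCm38. RNA came from MPP3, a multipotent progenitor subset known for its myeloid output, and from MPP4, its counterpart biased to lymphoid cells, each sorted by flow cytometry. Mice carried the label KOiMOS (MPP3, 3 months old) or WTiMOS (MPP3 and MPP4, 3 and 24 months old), and from each of these 5 sources T1 and T2 cells gave 3 libraries each, 30 libraries in 10 groups. The series is about Bcl11a, a zinc finger repressor of transcription, but the labels do not say what T1, T2 or iMOS stand for, which allele the mice carry or which promoter drives it, nor whether the libraries of a group came from separate animals. P-values therefore measure no more than the scatter among the libraries sequenced, part or all of which could be technical. KOiMOS cells of 24 months, which the series design names, were not analysed here.

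E proteins bind DNA as dimers at short sequences called E boxes. In lymphoid progenitors they work as homodimers or pairs among themselves, and in erythroid, megakaryocytic and stem cells they pair with Tal1 or Lyl1 and act with Gata factors, Lmo2 and Ldb1. Id proteins carry the helix-loop-helix surface but no DNA-binding region, so an E protein held by an Id protein cannot bind, and high Id levels are known to hold back B and T cell development and to favour innate lymphoid and some myeloid fates. Hes1 is a repressor of the same structural class and a known target of Notch signalling.

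The E box has the letters CANNTG, and it was searched in the 250 bases before start sites taken from RefSeq (GRCm38.p6). The search covered 9 promoters of 6 members: Id2, Id3, Tcf3, Tcf12, Tal1 and Lyl1. No promoter of Id1, Tcf4 or Hes1 was searched, which does not mean that RefSeq lacks one. The 30 bases around a match are shown for 4 members because they place a word of this class near the start, each written 5′ to 3′ on the strand of its gene with the E box in capitals.
Id2: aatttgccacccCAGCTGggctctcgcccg
Tcf3: agtgggcgtggtCACTTGggggcgtggctt
Tcf12: agatgctgccCAGCTGcgtccccgtcgcgg
Lyl1: acaggttcgggaCACCTGcacctcggtgtc
In Id2 (chr12:25096271-25096300, minus strand) the word began 196 bases before the start, in Tcf3 (chr10:80433672-80433701, minus strand) 54 bases, in Tcf12 240 bases (chr9:72112040-72112069, minus strand), and in Lyl1 235 bases (chr8:84701210-84701239, plus strand). No CANNTG lay in the windows of Id3 or Tal1. At least 1 such word was present in 66.2% of 32851 promoters of the same length. CAGCTG, the word of Id2 and of the Tcf12 promoter shown, was in 13% of all promoters on either strand, and CACCTG, the word of Lyl1, in 17.2%. A promoter of Tal1 (chr4:115056209-115056238, plus strand) held the Gata word AGATAA on its opposite strand, present in 9.99% of promoters and shown in capitals.
Tal1: ctatagagtcttTTATCTttgagcaattcc
Of the other words searched, GGCGCC, known to be bound by Smad proteins, lay 231 bases before the start of Id2 and in 9.59% of all promoters, and TGGGAA, the word of the Notch partner Rbpj, 55 bases before the start of Tal1 and in 21.6%.

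Values are TPM as deposited, a unit scaled for gene length and for library total. Since each library adds up to 1e+06 the depth behind it cannot be known, and 10519 to 12008 genes reached 1 TPM in a library. Within groups, pairs of libraries had a Pearson's r across genes between 0.975 and 0.996. Kit ran from 38.1 to 418 TPM, Cd34 from 92.5 to 1448 and Cd48 from 209 to 2111, and Slamf1, which these subsets lack, did not pass 2.79 TPM. Flt3, which defines MPP4, was 106 to 202 TPM in MPP4 and 19.5 to 181 in MPP3, so it did not separate all MPP3 libraries from MPP4. Bcl11a RNA was present in all libraries labelled KOiMOS, at 68.8 to 73.2 TPM in T1 and 64.3 to 70.6 in T2. Its RNA was thus kept there, although a value for the whole gene can miss the removal of a short stretch. In each WTiMOS table Bcl11a was higher in T2, by log2 0.78, 1.73, 0.71 and 1.37 in MPP3 of 3 and 24 months and MPP4 of 3 and 24 months.

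T1 and T2 also differed in RNA that depends on sex. The summed TPM of Eif2s3y, Ddx3y, Kdm5d and Uty was 0 in T1 of 24-month MPP3 and 3-month MPP4 and 0.0607 to 0.184 in T1 of 24-month MPP4, against 54.0 to 169 in the T2 libraries of these 3 tables. In both 3-month MPP3 tables T1 held 64.2 to 114 TPM of these genes and T2 33.8 to 61.2. Its part in the results was not tested. In MPP4 most genes moved together: the median change of all genes tested was log2 -0.74 at 3 months and 0.43 at 24 months, against -0.04, 0.10 and 0.18 in the MPP3 tables (KOiMOS, then WTiMOS of 3 and 24 months). In 3-month MPP4 the 100 most abundant genes took 35.5% to 35.9% of all TPM in T2 and 26.6% to 26.8% in T1, and the part of this in the results was not tested. Changes in MPP4 are therefore given as deposited and after rescaling each library by its median ratio to the geometric mean of all libraries of its table.

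A gene was called when its adjusted p was under 0.05, and every log2 change below refers to log2(TPM + 1), while ratios of means are of TPM. Of the 9 members, 7 could be tested in the libraries labelled KOiMOS, 8 in 3-month WTiMOS MPP3 and 9 in each other table, since the rest were under 1 TPM in too many libraries. In KOiMOS 2 members were called higher in T2 and 1 lower, where 36.4% of all genes were called (15.9% higher, 20.4% lower). WTiMOS MPP3 gave 1 higher and 3 lower at 3 months, against 14.3% of all genes (8.39% higher, 5.96% lower), and 3 higher and 2 lower at 24 months, against 42% (30% higher, 12% lower). MPP4 gave 1 higher and 3 lower at 3 months, against 81.3% (8.71% higher, 72.6% lower), and 4 higher and 4 lower at 24 months, against 65.2% (58.2% higher, 7% lower). So the 4 of 9 called in 3-month MPP4 were a smaller share than that of all genes. The T1 and T2 libraries of a member did not overlap for 4 of 7 members in KOiMOS, where 49.3% of all genes had no overlap, for 5 of 8 (32.9%) and 6 of 9 (52.8%) in WTiMOS MPP3 of 3 and 24 months, and for 4 of 9 (81.8%) and 8 of 9 (69.0%) in MPP4 of 3 and 24 months. After rescaling the members called were 5 higher and 1 lower in 3-month MPP4 and 1 higher and 5 lower in 24-month MPP4, where 52.3% and 34.0% of all genes were then called. Of all calls in these tables, 10.7% and 89.3% were higher in T2 as deposited and 48.8% and 43.7% after rescaling.

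**Figure D1:**
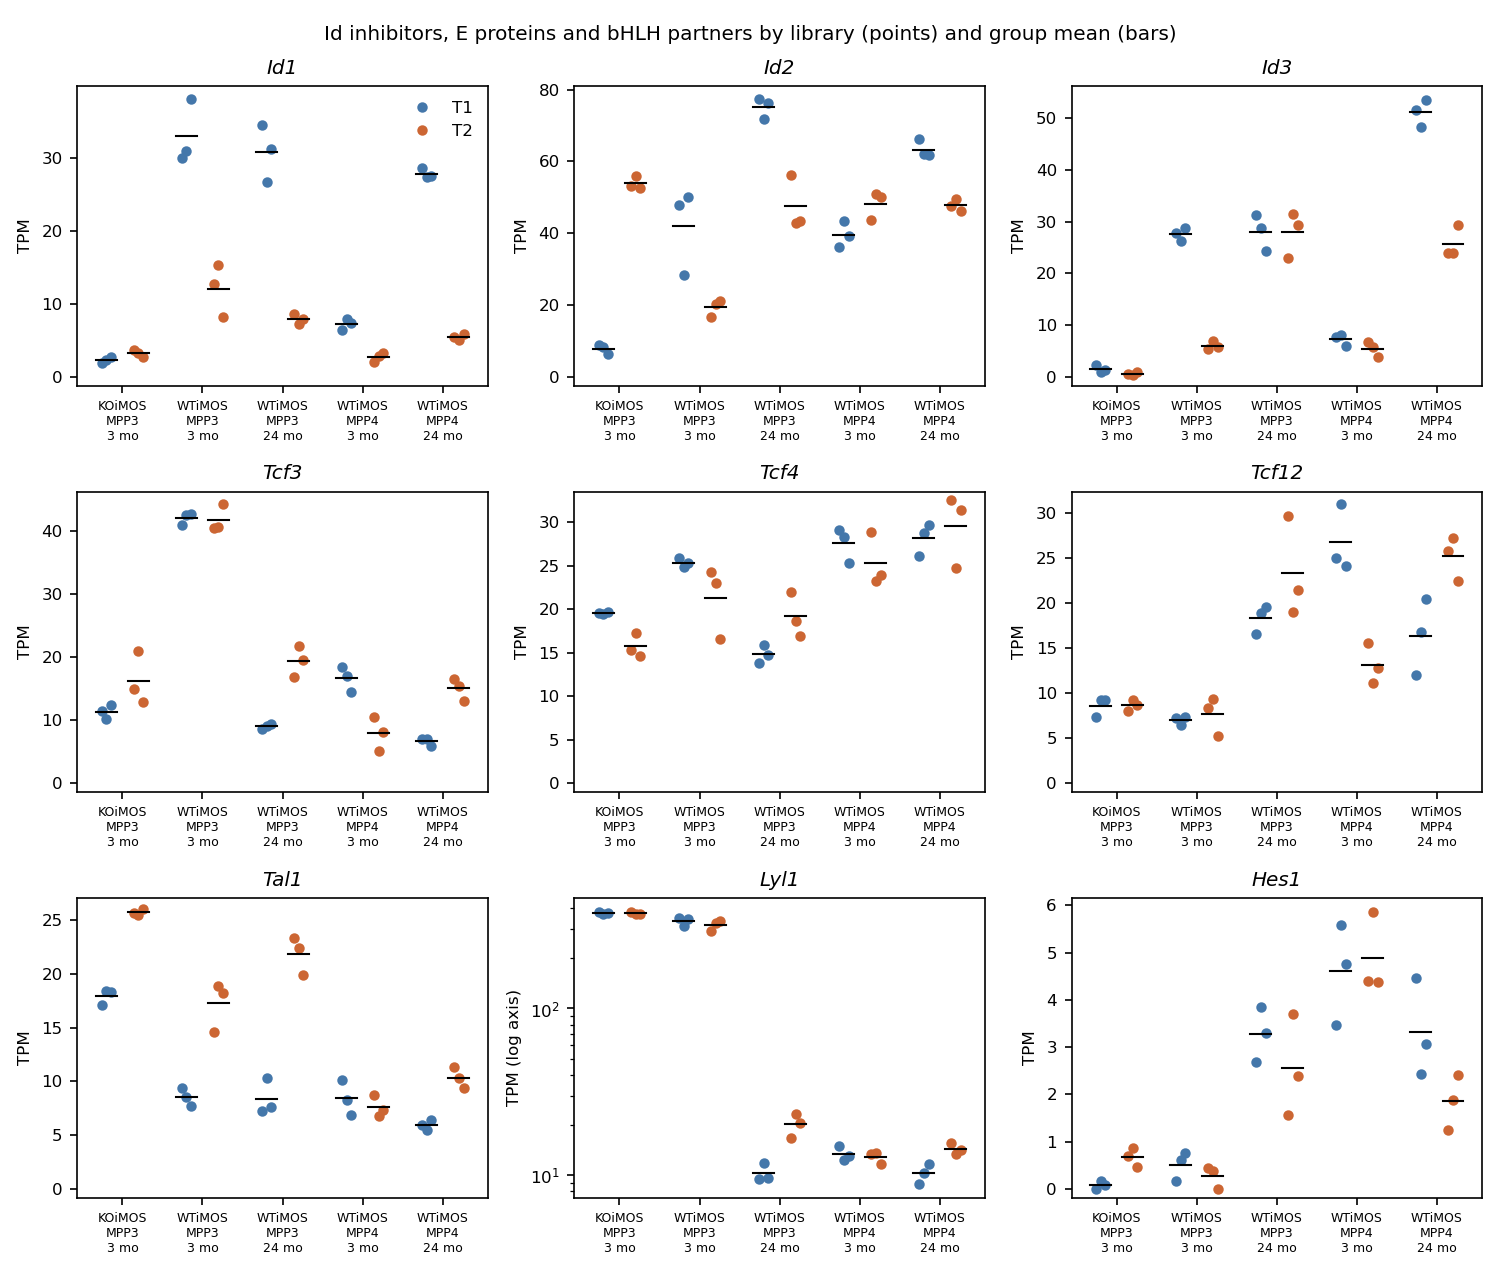
TPM of each member in each library (points; T1 blue, T2 orange) and the mean of its group (black bars), by table; the axis of Lyl1 is logarithmic, the others are linear. Id2 stands at 6.49 to 8.90 TPM in KOiMOS T1 and 52.6 to 56.0 in KOiMOS T2, and Lyl1 at 293 to 381 TPM in the 3-month MPP3 tables and 8.84 to 23.2 in the others.

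Id2 (chromosome 12, 25093799 to 25097140, minus strand), the Id gene known for its part in innate lymphoid, dendritic and myeloid cells, was the member with the widest change. In the libraries labelled KOiMOS it was 8.90, 8.28 and 6.49 TPM in T1 and 53.1, 56.0 and 52.6 in T2. Its mean rose 6.83 times, from 7.89 ± 1.25 to 53.9 ± 1.83 TPM (SD, n = 3; log2 2.64, SE 0.098, adjusted p = 2.17e-09), and the groups stood far apart. WTiMOS MPP3 went the other way at both ages. T1 held 48.0, 28.4 and 50.1 TPM and T2 16.7, 20.4 and 21.2 at 3 months (log2 -1.04, SE 0.212, adjusted p = 0.00588). At 24 months T1 held 77.5, 71.9 and 76.2 TPM and T2 56.3, 42.9 and 43.3 (log2 -0.66, SE 0.126, adjusted p = 0.00161). Neither pair of groups overlapped, and the lowest T1 library of 3 months, at 28.4 TPM, stood well below its other T1 libraries.

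In MPP4 the sign of the Id2 step differed with age. At 3 months T1 held 36.1, 43.3 and 39.2 TPM and T2 43.8, 50.9 and 50.03, which was higher by log2 0.28 (adjusted p = 0.0281) and by 1.09 after rescaling (adjusted p = 2.02e-05). As deposited this call was lost without T1 replicate 1 (adjusted p = 0.113), T1 replicate 3 (0.0575), T2 replicate 2 (0.0828) or T2 replicate 3 (0.0923). The 24-month cells held 66.1, 62.0 and 61.7 TPM in T1 and 47.6, 49.6 and 46.2 in T2, a fall as deposited (log2 -0.40, adjusted p = 0.00279) and a larger one after rescaling (log2 -0.84, adjusted p = 4.43e-05). Id2 was thus called in all 5 tables with the same sign under both scalings, higher in T2 of KOiMOS MPP3 and 3-month MPP4 and lower in T2 of the other 3. In tissue sorted in bulk, a change in the number of cells with Id2 and a change in the RNA of each cell cannot be told apart.

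Markers of other cells moved beside it. In KOiMOS the 12 mast cell and basophil markers summed to 468 to 585 TPM in T1 and 4725 to 5099 in T2, with 10 of 12 called higher and 0 at 0 in T2. The 12 erythroid markers summed to 167 to 180 TPM in T1 and 1988 to 2134 in T2 there, with Slc4a1 at 0 in T1. The 12 neutrophil and monocyte markers summed to 4430 to 4682 and 8258 to 8743. Called higher were 8 of 10 erythroid markers tested with 0 lower, and 7 of 11 neutrophil and monocyte markers with 1 lower. In 24-month MPP3, where Id2 fell, the summed mast cell list went from 2393 to 2633 TPM in T1 to 871 to 993 in T2, but of 11 markers tested 6 were called higher and 4 lower, with a median of log2 0.84, so the sum and most markers went opposite ways (Mcpt4 and Tpsab1 were at 0 in T1). In 3-month WTiMOS MPP3, where Id2 also fell, the sums overlapped, at 301 to 336 TPM in T1 and 207 to 445 in T2, with 1 higher and 1 lower of 9 and Mcpt4, Tpsb2, Tpsab1 and Prss34 at 0 in T1. In 3-month MPP4, where Id2 rose, the sum was 33.2 to 38.6 TPM in T1 and 55.1 to 60.6 in T2, with 1 higher and 2 lower of 4 as deposited (median log2 -0.21) and 2 higher and 0 lower after rescaling, and with the same 4 markers at 0 in both groups. In 24-month MPP4, where Id2 fell, the sum was 243 to 280 TPM in T1 and 67.1 to 83.8 in T2, with 0 higher and 3 lower of 4 and 7 of the 12 at 0 in both groups, Fcer1a and Ms4a2 among them. The sum of the list thus went the way of Id2 in KOiMOS, 24-month MPP3 and both MPP4 tables and overlapped in 3-month WTiMOS MPP3. Of the called markers as deposited, more went the other way in 24-month MPP3 and 3-month MPP4. The 12 T, NK and innate lymphoid markers summed to 631 to 644 TPM in T1 and 383 to 408 in T2 of KOiMOS. Their sums were 828 to 893 and 921 to 1097 TPM in 3-month WTiMOS MPP3, T1 then T2. At 24 months MPP3 held 2978 to 3200 and 2487 to 2743. MPP4 held 1081 to 1143 and 1514 to 1611 at 3 months. At 24 months it held 1804 to 2010 and 1631 to 1731. Called were 2 higher and 3 lower of 6 in KOiMOS and 1 and 3 of 4 in 3-month MPP4 as deposited. The part of these cell types in the Id2 steps was not tested.

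Id1 (chromosome 2, 152736251 to 152737410, plus strand), a known target of BMP signalling, was lower in T2 in all 4 WTiMOS tables under both scalings. In 3-month MPP3 it was 29.998, 30.9 and 38.1 TPM in T1 and 12.7, 15.4 and 8.22 in T2 (log2 -1.41, SE 0.220, adjusted p = 0.00104). At 24 months MPP3 held 34.5, 26.7 and 31.2 TPM in T1 and 8.63, 7.27 and 7.96 in T2 (log2 -1.82, SE 0.141, adjusted p = 2.37e-06). No T2 library reached a T1 library in either table. MPP4 of 3 months had 6.46, 7.97 and 7.43 TPM in T1 and 2.07, 2.82 and 3.25 in T2 (log2 -1.17, adjusted p = 2.59e-05), a fall that was smaller after rescaling (log2 -0.50, adjusted p = 0.0385). In 24-month MPP4 it was 28.7, 27.4 and 27.5 TPM in T1 and 5.42, 5.09 and 5.89 in T2 (log2 -2.16, SE 0.115, adjusted p = 4.80e-07; rescaled log2 -2.56). KOiMOS libraries held little Id1, 1.86, 2.36 and 2.80 TPM in T1 and 3.73, 3.26 and 2.79 in T2, groups that overlapped (log2 0.36, adjusted p = 0.0720). Neutrophil and monocyte markers summed to 12201 to 13714 TPM in T1 and 2375 to 2767 in T2 of 24-month MPP3 and to 2186 to 2334 and 910 to 1082 in 24-month MPP4. In the 3-month tables their sums were 9015 to 10272 and 6562 to 8627 in WTiMOS MPP3 and 1342 to 1427 and 770 to 785 in MPP4, T1 then T2, and 0 of the markers were at 0 in these groups. Marker by marker, 2 were called higher and 8 lower of 11 in 24-month MPP3, 3 and 6 of 12 in 24-month MPP4, 3 and 4 of 12 in 3-month WTiMOS MPP3 and 1 and 11 of 12 in 3-month MPP4, which after rescaling were 3 and 4. Their part in the Id1 steps was not tested.

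Id3 (chromosome 4, 136143497 to 136145755, plus strand), the Id gene known for limiting E proteins in B and T cells, fell with Id1 and Id2 in 3-month WTiMOS MPP3. There it was 27.9, 26.3 and 28.7 TPM in T1 and 5.45, 6.95 and 5.73 in T2 (log2 -2.03, SE 0.188, adjusted p = 1.45e-05), with every T1 library far above every T2 library. The 10 B cell markers fell beside it, from a summed 844 to 1095 TPM to 201 to 265, with 8 of 8 tested called lower and Ms4a1 at 0 in both groups. These markers did not move with Id3 in each table: their sum fell in 24-month MPP3 too, from 424 to 519 TPM to 145 to 148, and overlapped in 24-month MPP4, at 114 to 124 TPM in T1 and 113 to 132 in T2. In 3-month MPP4 it was 144 to 167 TPM in T1 and 92.1 to 110.1 in T2, with 2 higher and 2 lower of 5 as deposited and 3 higher and 0 lower after rescaling. Their part in the Id3 steps was not tested. In 24-month MPP3 the Id3 groups overlapped, at 31.2, 28.7 and 24.2 TPM in T1 and 23.0, 31.5 and 29.3 in T2 (log2 -0.01, 95% interval -0.34 to 0.32, adjusted p = 0.963). MPP4 of 24 months held 51.5, 48.4 and 53.6 TPM in T1, the highest of any group, and 23.9, 24.0 and 29.4 in T2 (log2 -0.97, SE 0.110, adjusted p = 7.88e-05; rescaled log2 -1.40). At 3 months MPP4 held 6.02 to 8.13 TPM in T1 and 3.90 to 6.74 in T2 (log2 -0.37, adjusted p = 0.0818; rescaled log2 0.34, adjusted p = 0.131). Id3 in KOiMOS was near the floor, at 2.33, 0.9998 and 1.41 TPM in T1 and 0.611, 0.301 and 0.968 in T2, and was not tested.

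Among the E proteins Tcf3 (chromosome 10, 80409514 to 80433647, minus strand), which encodes E2A, changed most. In 24-month MPP3 it was 8.57, 9.12 and 9.44 TPM in T1 and 16.8, 21.7 and 19.5 in T2, a rise of 2.14 times in the mean (log2 1.01, SE 0.140, adjusted p = 0.000201). Its rise in 24-month MPP4 was alike, from 6.98, 6.98 and 5.83 TPM in T1 to 16.6, 15.5 and 13.1 in T2 (log2 1.08, SE 0.137, adjusted p = 0.000152; rescaled log2 0.67, adjusted p = 0.00351). All T2 libraries lay above all T1 libraries at 24 months in both subsets. In 3-month WTiMOS MPP3 it stood at 41.0, 42.6 and 42.8 TPM in T1 and 40.6, 40.7 and 44.3 in T2 (log2 -0.01, 95% interval -0.29 to 0.27, adjusted p = 0.975). MPP4 of 3 months went from 18.5, 17.0 and 14.5 TPM in T1 to 10.5, 5.08 and 8.15 in T2 (log2 -1.03, adjusted p = 0.000397), but after rescaling it did not pass (log2 -0.27, adjusted p = 0.254). KOiMOS libraries held 11.4, 10.2 and 12.4 TPM in T1 and 15.0, 21.0 and 12.8 in T2 (log2 0.46, adjusted p = 0.0514), which passed after rescaling (adjusted p = 0.0286) and without T2 replicate 3 (adjusted p = 0.00436).

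Tcf12 (chromosome 9, 71842688 to 72111871, minus strand), which encodes HEB, passed only in MPP4 and only as deposited. At 3 months it was 25.02, 31.1 and 24.2 TPM in T1 and 15.6, 11.1 and 12.8 in T2 (log2 -0.98, adjusted p = 2.82e-05; rescaled log2 -0.19, adjusted p = 0.240). At 24 months it was 11.97, 16.8 and 20.4 TPM in T1 and 25.8, 27.3 and 22.5 in T2 (log2 0.62, adjusted p = 0.00912; rescaled log2 0.19, adjusted p = 0.412). The groups did not overlap at either age, and the signs followed those of all genes. In the MPP3 tables it ran from 5.22 to 29.7 TPM with adjusted p of 0.149 to 0.928. Some non-coding genes overlap Tcf12 on either strand.

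Tcf4 (chromosome 18, 69343356 to 69689079, plus strand), which encodes E2-2 and is known for plasmacytoid dendritic cells, was the steadiest of the E proteins in level, at 13.8 to 32.5 TPM over all 30 libraries. It was lower in T2 of KOiMOS, at 15.3, 17.3 and 14.6 TPM against 19.6, 19.5 and 19.6 in T1 (log2 -0.30, SE 0.081, adjusted p = 0.0116). In WTiMOS MPP3 the changes did not pass at 3 months (log2 -0.26, adjusted p = 0.375) or at 24 months (log2 0.35, adjusted p = 0.0633). In MPP4 its libraries overlapped at both ages, and the sign turned with the scaling: log2 -0.12 as deposited and 0.68 rescaled at 3 months, and 0.06 and -0.37 at 24 months, with adjusted p of 0.000222 and 0.0335 for the rescaled values. The dendritic cell markers summed to 469 to 486 TPM in T1 and 475 to 501 in T2 of KOiMOS, with Siglech at 0 in both and 4 higher and 2 lower of 8 tested.

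**Figure D2:**
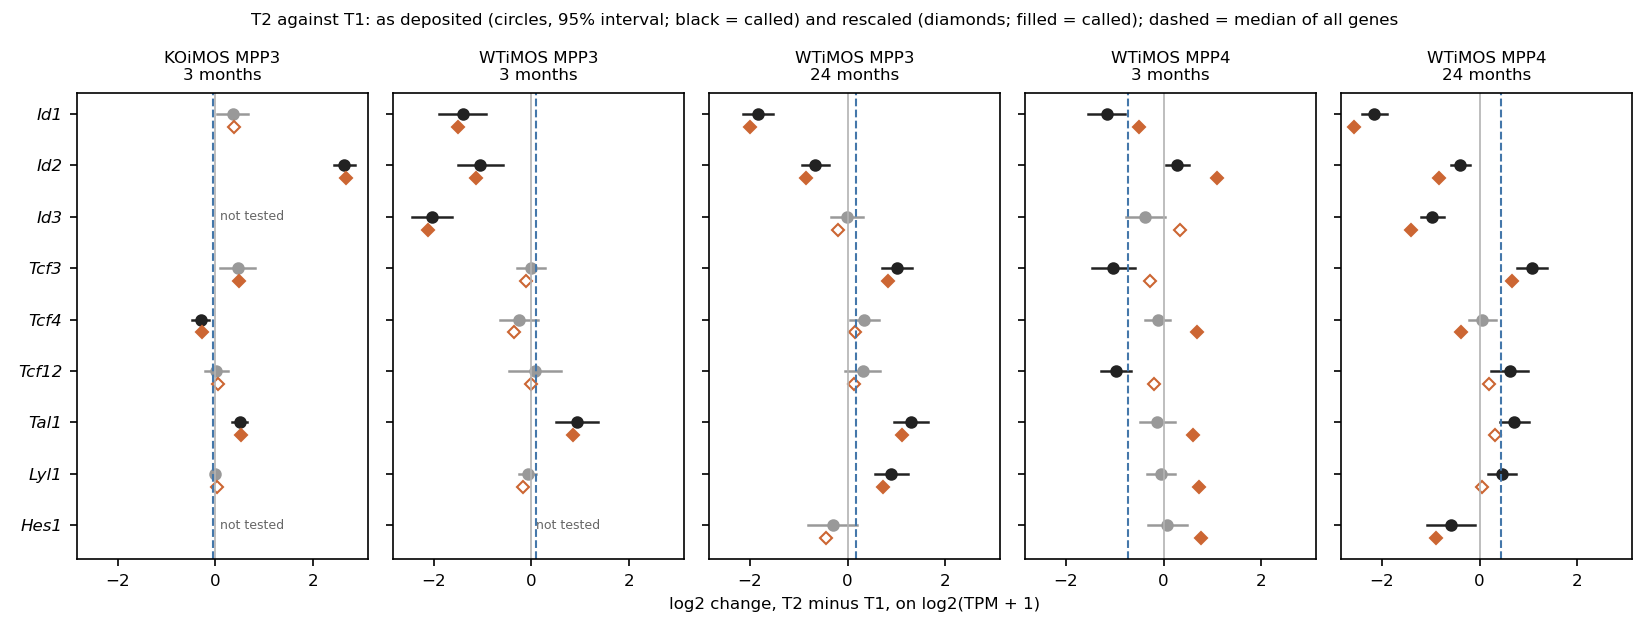
Log2 change of each member, T2 minus T1, in each table: circles with 95% intervals for values as deposited (black where called, grey where not), diamonds for rescaled values (filled where called), and a dashed line at the median of all genes. Id1 is below 0 in all 4 WTiMOS tables under both scalings and Tal1 above 0 in the 3 MPP3 tables, while in MPP4 Tcf4 changes sign between the scalings at both ages and Id3, Tal1 and Lyl1 do so at 3 months.

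The ratio of summed Id RNA to summed E protein RNA does not depend on how a library is scaled, since both sums come from the same library. It was 0.341, 0.299 and 0.259 in KOiMOS T1 and 1.502, 1.25 and 1.56 in KOiMOS T2, a mean 4.79 times as high. In 3-month WTiMOS MPP3 it went from 1.43, 1.16 and 1.55 in T1 to 0.476, 0.585 and 0.532 in T2. At 24 months it went from 3.68, 2.90 and 3.01 to 1.28, 1.38 and 1.39 in MPP3 and from 3.24, 2.63 and 2.55 to 1.03, 1.17 and 1.22 in MPP4. These 3 tables thus had 2.37 to 2.60 times more Id RNA for each unit of E protein RNA in T1 than in T2. MPP4 of 3 months went the other way, with 0.691, 0.778 and 0.822 in T1 and 0.958, 1.51 and 1.28 in T2, a mean 1.63 times as high in T2. T1 and T2 did not overlap in any table, and no p is given for a score over chosen members.

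Where the ratio was higher in T2, that direction was lost when Id2 was left out. Id2 made 66.8% of the Id RNA in KOiMOS T1 and 93.3% in T2, and without it the ratios there were 0.0991 and 0.0973. In 3-month MPP4 it made 73.1% in T1 and 85.5% in T2, and without it the ratios were 0.205 and 0.18, so that the direction turned. Without Id2 the other 3 tables kept higher ratios in T1, at 0.814 against 0.255 in 3-month MPP3, 1.41 against 0.587 in 24-month MPP3 and 1.56 against 0.450 in 24-month MPP4. The sums moved in different ways: Id RNA fell from 142 ± 4.24 to 79.1 ± 2.33 TPM and E protein RNA went from 51.2 ± 5.52 to 69.8 ± 4.48 in 24-month MPP4, while in 3-month MPP3 Id RNA went from 103 ± 15.8 to 37.6 ± 4.48 beside E protein RNA of 74.5 ± 0.825 and 70.8 ± 4.09 (SD, n = 3). In 3-month MPP4 Id RNA was 54.1 ± 4.77 and 56.5 ± 3.51 TPM, T1 then T2, beside E protein RNA of 71.0 ± 6.34 and 46.4 ± 7.87. As deposited, the E protein sum thus moved more than the Id sum in that table.

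**Figure D3:**
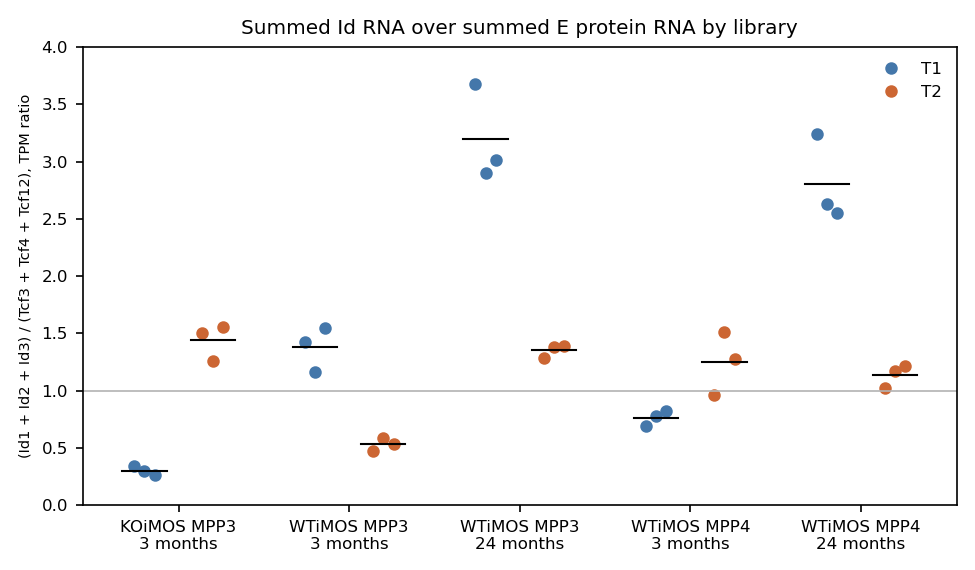
Summed TPM of Id1, Id2 and Id3 over summed TPM of Tcf3, Tcf4 and Tcf12 in each library (points; T1 blue, T2 orange), with group means (bars) and a line at equal amounts. T2 lies above T1 in KOiMOS MPP3 and 3-month MPP4 and below it in the other 3 tables, and the T1 libraries of 24 months are the highest, at 2.55 to 3.68.

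Tal1 (chromosome 4, 115056426 to 115071755, plus strand), the partner of E proteins known for stem cells, red cells and megakaryocytes, rose in T2 of all 3 MPP3 tables under both scalings. In KOiMOS it was 17.1, 18.5 and 18.3 TPM in T1 and 25.7, 25.5 and 26.0 in T2 (log2 0.50, SE 0.069, adjusted p = 0.000135). WTiMOS MPP3 of 3 months held 9.37, 8.53 and 7.67 TPM in T1 and 14.6, 18.9 and 18.2 in T2 (log2 0.93, SE 0.198, adjusted p = 0.00753). At 24 months it held 7.23, 10.4 and 7.62 TPM in T1 and 23.3, 22.5 and 19.9 in T2 (log2 1.30, SE 0.156, adjusted p = 7.44e-05). Each T2 library lay above each T1 library in these 3 tables. In 24-month MPP4 it was 5.93, 5.47 and 6.38 TPM in T1 and 11.4, 10.3 and 9.36 in T2 (log2 0.71, adjusted p = 0.00126), and after rescaling it did not pass (log2 0.32, adjusted p = 0.0887). MPP4 of 3 months had 6.89 to 10.2 TPM in T1 and 6.77 to 8.73 in T2, which was log2 -0.12 as deposited (adjusted p = 0.491) and 0.61 rescaled (adjusted p = 0.00441). The erythroid markers summed to 16.4 to 23.1 TPM in T1 and 788 to 1105 in T2 of 24-month MPP3 and to 19.2 to 37.0 and 62.0 to 84.5 in 3-month WTiMOS MPP3, with Slc4a1 at 0 in T1 of both. Of 10 erythroid markers tested, 7 were called higher at 24 months and 3 at 3 months, with 0 lower in either. Megakaryocyte and platelet markers, 10 in all, went from 49.3 to 55.9 TPM to 111 to 128 in 24-month MPP3. In 3-month WTiMOS MPP3 they went from 216 to 235 to 434 to 490, and in KOiMOS stood at 474 to 482 and 455 to 494. Called higher were 4 of 6 with 1 lower at 24 months and 2 of 7 with 0 lower in 3-month WTiMOS MPP3. In KOiMOS 3 of 8 were called higher and 2 lower. In 3-month MPP4, where Tal1 did not pass as deposited, the erythroid markers summed to 48.1 to 60.7 TPM in T1 and 394 to 441 in T2. There 4 of 6 tested were called higher and 0 lower, with Slc4a1 at 0 in both groups and Epor at 0 in T2. Macrophage markers, 10 in all, were called higher for 6 of 9 with 0 lower in KOiMOS, 6 of 9 with 2 lower in 3-month WTiMOS MPP3 and 6 of 8 with 2 lower in 24-month MPP3, with medians of log2 0.46, 1.41 and 2.07. Their sums were 145 to 157 TPM in T1 and 197 to 217 in T2 of KOiMOS and 65.5 to 79.8 and 84.0 to 113 in 24-month MPP3, and overlapped in 3-month WTiMOS MPP3, at 153 to 203 and 158 to 195. In MPP4 0 of 8 were higher and 3 lower at 3 months (1 and 0 after rescaling) and 7 and 0 of 8 at 24 months. Mertk was at 0 in T1 of 24-month MPP3, in T2 of 3-month MPP4 and in both groups of 24-month MPP4. The part of these cell types in the Tal1 steps was not tested.

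Lyl1 (chromosome 8, 84701457 to 84704715, plus strand), a close relative of Tal1, differed between tables far more than between T1 and T2. It was 381, 367 and 375 TPM in T1 and 378, 370 and 367 in T2 of KOiMOS, and 349, 313 and 342 in T1 and 293, 326 and 333 in T2 of 3-month WTiMOS MPP3. In the other 3 tables its libraries ran from 8.84 to 23.2 TPM, a mean of 13.6 against 349, so that the 12 libraries of 3-month MPP3 stood 25.7 times higher. Many genes split the libraries in this way: of 13225 genes that reached 1 TPM in 3 or more libraries, 3392 were higher in all 12 libraries of 3-month MPP3 than in all 18 others, 1204 were lower in all of them, and 220 were at least 10 times higher. No source used here says whether the 5 tables were scaled together, so levels across tables are a description. The gene lies within Nfix on the opposite strand, and no source used here says whether the counting kept strand. Nfix ran from 4.38 to 17.4 TPM over all libraries.

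Within tables Lyl1 was called higher in T2 at 24 months. MPP3 held 9.54, 11.8 and 9.62 TPM in T1 and 16.8, 23.2 and 20.5 in T2 (log2 0.90, SE 0.155, adjusted p = 0.000859; rescaled log2 0.72). MPP4 held 8.84, 10.3 and 11.7 TPM in T1 and 15.6, 13.5 and 14.2 in T2 (log2 0.46, adjusted p = 0.0115), which after rescaling was log2 0.05 (adjusted p = 0.809). At 3 months the steps were log2 -0.01 (95% interval -0.09 to 0.07) in KOiMOS, -0.08 (95% interval -0.25 to 0.09) in WTiMOS MPP3 and -0.05 in MPP4, which became 0.72 after rescaling (adjusted p = 0.000535).

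Hes1 (chromosome 16, 30064384 to 30067796, plus strand) was the member of lowest level, at 0 to 5.86 TPM. In both 3-month MPP3 tables every library was under 1 TPM, 0 to 0.873, and it was not tested. It stood highest in 3-month MPP4, at 3.47 to 5.57 TPM in T1 and 4.38 to 5.86 in T2, groups that overlapped (log2 0.08, adjusted p = 0.707; rescaled log2 0.76, adjusted p = 0.00580). In 24-month MPP4 it fell from 4.47, 2.42 and 3.06 TPM in T1 to 1.25, 1.89 and 2.42 in T2 (log2 -0.59, adjusted p = 0.0363; rescaled log2 -0.90, adjusted p = 0.0102). That call as deposited was lost without T1 replicate 1 (adjusted p = 0.152), T1 replicate 3 (0.0664), T2 replicate 1 (0.117) or T2 replicate 2 (0.0623). The step in 24-month MPP3 did not pass (log2 -0.30, adjusted p = 0.316).

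Whether a step differed between tables was tested as the difference of the log2 steps. Against WTiMOS, the libraries labelled KOiMOS differed in Id2 (log2 3.68, SE 0.234, adjusted p = 3.45e-09) and Id1 (log2 1.76, SE 0.263, adjusted p = 4.36e-05), and 22.2% of all genes were called. Tcf3, Tcf4, Tcf12, Tal1 and Lyl1 did not pass, though Tcf3 (log2 0.47, adjusted p = 0.111) did after rescaling (log2 0.60, adjusted p = 0.0336), and the interval of Tcf4, log2 -0.46 to 0.37, and of Tal1, -0.89 to 0.01, held 0. Between 24 and 3 months in MPP3, Id3 differed by log2 2.02 (adjusted p = 3.36e-06), Tcf3 by 1.02 (adjusted p = 0.000565) and Lyl1 by 0.98 (adjusted p = 0.000843), where 18.2% of genes were called. These calls of both comparisons held after rescaling, at log2 3.81, 1.88, 1.92, 0.94 and 0.90 in that order. Id1 and Id2 had no called age difference in MPP3, with intervals of log2 -0.96 to 0.13 and -0.13 to 0.90.

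In MPP4 the age difference was called for 8 of 9 members as deposited, where 87.0% of all genes were called. For the 3 Id genes and Hes1 it was more negative at 24 months under both scalings: Id1 by log2 -0.99 and -2.07 rescaled, Id2 by -0.68 and -1.93, Id3 by -0.60 and -1.74, and Hes1 by -0.67 and -1.66. The call of Id3 as deposited was lost without 3-month T1 replicate 3 (adjusted p = 0.0601) or T2 replicate 1 (0.0637) and in a single fit of all 30 libraries (0.0650). That of Hes1 was lost without the filter on low values (adjusted p = 0.0575), and without 24-month T1 replicate 1 (0.133), T1 replicate 3 (0.0505) or T2 replicate 1 (0.108), or 3-month T1 replicate 1 (0.107) or T2 replicate 2 (0.0890). Tcf3 had the opposite sign, log2 2.10 and 0.94 rescaled (adjusted p = 5.67e-08 and 0.00201), so its step rose with age under both scalings. Tcf12 went from log2 1.59 to 0.38 (adjusted p = 0.142) with rescaling, and Tal1 and Lyl1 changed sign, from 0.84 to -0.30 and from 0.51 to -0.67. Tcf4 was log2 0.18 as deposited (adjusted p = 0.330) and -1.05 rescaled.

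Between MPP4 and MPP3 of 3 months, 71.7% of genes had a called difference of the step. Id2 was higher by log2 1.33 (2.23 rescaled) and Id3 by 1.66 (2.46 rescaled), called under both scalings. Tcf3 (log2 -1.02), Tcf12 (-1.05) and Tal1 (-1.06) were called as deposited and not after rescaling (log2 -0.16, -0.18 and -0.23), while Id1 (log2 0.24 as deposited, 1.01 rescaled), Tcf4 (0.14 and 1.03) and Lyl1 (0.02 and 0.89) were called only after rescaling. At 24 months, where 22.6% of genes were called, Id3 differed by log2 -0.96 (adjusted p = 0.00111; -1.20 rescaled) and Tal1 by -0.59 (adjusted p = 0.0440; -0.80 rescaled). The call of Tal1 as deposited was lost without 9 of the 12 libraries, each left out in turn, with adjusted p up to 0.124. Id1 (log2 -0.34 as deposited, -0.56 rescaled), Tcf4 (-0.29 and -0.54) and Lyl1 (-0.44 and -0.67) were called only after rescaling. The Tcf3 difference at 24 months was not called, with an interval of log2 -0.34 to 0.47. All of these comparisons that share a table share its libraries.

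**Figure D4:**
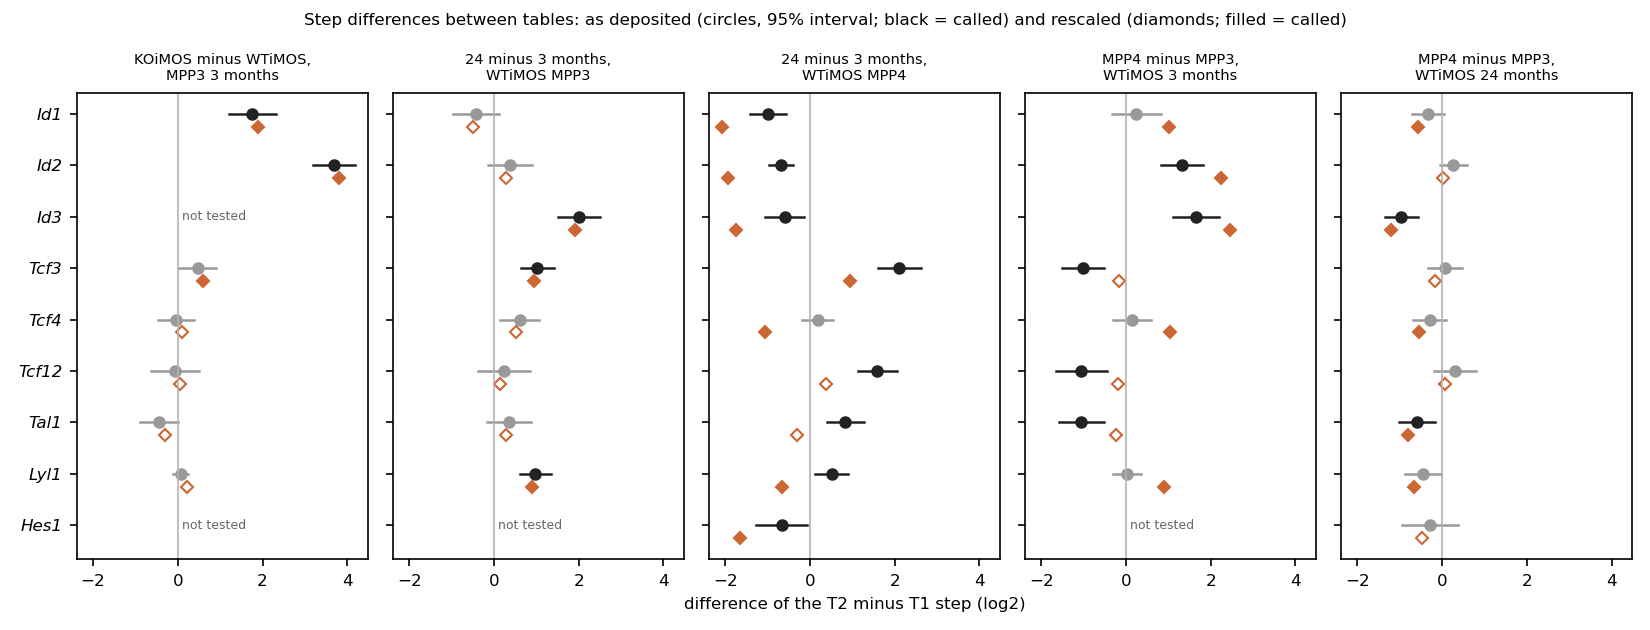
Difference of the T2 minus T1 step between pairs of tables for each member (log2): circles with 95% intervals for values as deposited (black where called), diamonds for rescaled values (filled where called). Id2 stands at 3.68 in the KOiMOS panel, and in the panel of age in MPP4 the Id genes and Hes1 are below 0 and Tcf3 above 0 under both scalings while Tal1 and Lyl1 change sign.

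Set in order, the group means of Id2 ran from 75.2 TPM in T1 of 24-month MPP3 to 7.89 in KOiMOS T1, which was apart from the next group, 3-month WTiMOS MPP3 T2 at 19.4. From 48.3 down to 39.5 TPM the neighbouring groups overlapped: T2 of both MPP4 tables, T2 of 24-month MPP3, T1 of 3-month WTiMOS MPP3 and T1 of 3-month MPP4. Id1 was highest in T1 of 3-month WTiMOS MPP3, 24-month MPP3 and 24-month MPP4, at means of 33.0, 30.8 and 27.9 TPM whose neighbours overlapped, and lowest at 2.34 in KOiMOS T1. Id3 ran from 51.1 TPM in T1 of 24-month MPP4 to 0.626 in KOiMOS T2. The lowest mean of each Id gene was thus in a KOiMOS group, although the Id1 libraries overlapped those of the next group, 3-month MPP4 T2. Tcf3 was highest in 3-month WTiMOS MPP3, at 42.1 and 41.9 TPM, apart from the next group at 19.4. Tal1 was highest in KOiMOS T2, at 25.7 TPM, and lowest in T1 of 24-month MPP4, at 5.93. Tcf4 neighbours overlapped in 8 of 9 places. Its MPP4 libraries, at 23.3 to 32.5 TPM, still lay above all KOiMOS libraries (14.6 to 19.6) and 24-month MPP3 libraries (13.8 to 21.9). They overlapped those of 3-month WTiMOS MPP3, at 16.5 to 25.9 TPM.

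The other genes of the pathway were read as lists chosen with earlier results known, by counts beside the background shares above. Of the lymphoid genes known to need E proteins, 0 were called higher and 8 lower of 11 in KOiMOS, 1 and 11 of 15 in 3-month WTiMOS MPP3 and 1 and 7 of 13 in 24-month MPP3. Their median change was log2 -0.89, -1.92 and -0.76, against -0.04, 0.10 and 0.18 for all genes. Cd79a, a part of the B cell receptor, fell from 136 ± 19.1 to 14.5 ± 5.70 TPM in 3-month WTiMOS MPP3 (log2 -3.20, adjusted p = 1.04e-06). Igll1, of the surrogate light chain, fell in 24-month MPP3 from 225 ± 10.3 to 15.1 ± 0.683 TPM, and Vpreb3 from 148 ± 6.25 to 16.2 ± 0.836 TPM. Flt3, a receptor of early lymphoid progenitors, fell in KOiMOS from 116 ± 2.28 to 68.9 ± 5.55 TPM (log2 -0.75, adjusted p = 1.37e-06). It went the other way in WTiMOS MPP3, where its T1 and T2 libraries did not overlap at either age. Its means were 87.6 and 146 TPM at 3 months and 19.9 and 28.0 at 24 months, T1 then T2. The 10 B cell markers summed to 104 to 116 TPM in T1 and 62.3 to 72.8 in T2 of KOiMOS, 844 to 1095 and 201 to 265 in 3-month WTiMOS MPP3, and 424 to 519 and 145 to 148 in 24-month MPP3, and their part was not tested.

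In MPP4 the same list depended on the scaling. At 3 months 3 were called higher and 6 lower of 13 as deposited, and 7 and 2 after rescaling, and at 24 months 5 and 1 as deposited and 2 and 5 after rescaling. Dntt, which adds bases to rearranging receptor genes, fell from 974 ± 9.24 to 393 ± 41.0 TPM at 3 months (log2 -1.31, adjusted p = 8.46e-10; rescaled log2 -0.49). Vpreb3 rose there from 0.760 ± 0.434 to 19.5 ± 3.16 TPM (log2 3.56, adjusted p = 2.02e-09; rescaled log2 4.11).

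Erythroid genes known to need Tal1 were called higher in all MPP3 tables, 7 of 8 with 1 lower in KOiMOS, 5 of 9 with 0 lower in 3-month WTiMOS and 5 of 8 with 0 lower at 24 months, with medians of log2 1.06, 1.21 and 0.77. Klf1, an activator of red cell genes, rose in KOiMOS from 3.55 ± 0.859 to 21.0 ± 1.23 TPM (log2 2.29, adjusted p = 1.01e-07). Epor, the erythropoietin receptor, rose in 3-month WTiMOS MPP3 from 0.676 ± 0.373 to 8.30 ± 1.94 TPM (log2 2.47, adjusted p = 0.000143). Car2, a carbonic anhydrase, rose in all 3, by log2 1.31, 1.35 and 0.83. In MPP4 only 4 of the list were tested, with 3 lower and 0 higher at 3 months and 3 higher and 0 lower at 24 months as deposited, which after rescaling were 2 lower and 1 higher, and 1 higher and 0 lower.

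Partners of the Tal1 and Lyl1 complexes moved with Tal1 in WTiMOS MPP3 in part: 5 of 14 were called higher and 1 lower at 3 months and 9 and 2 at 24 months, against 4 and 5 of 14 in KOiMOS. After rescaling the 9 higher at 24 months became 4. Gata2, a stem and progenitor cell factor, rose from 48.9 ± 7.62 to 93.2 ± 9.06 TPM at 3 months and from 12.04 ± 2.46 to 39.8 ± 3.28 at 24 months (log2 0.92 and 1.66). Lmo2, the bridge of the complex, rose from 147 ± 14.1 to 250 ± 48.1 and from 278 ± 35.3 to 598 ± 69.9 TPM (log2 0.75 and 1.11). Gata1, the erythroid counterpart of Gata2, rose in KOiMOS from 16.7 ± 1.10 to 29.8 ± 2.86 TPM (log2 0.80, adjusted p = 1.43e-05). It also rose in 3-month WTiMOS MPP3, from 9.40 ± 2.72 to 23.9 ± 7.94 TPM (log2 1.24). In MPP4 0 of 13 were called higher and 10 lower at 3 months and 10 and 0 at 24 months, which after rescaling were 3 and 0, and 1 and 2.

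The BMP and TGF-beta list, which also holds inhibitors of signalling, had 3 of 15 genes called lower in KOiMOS and 0 higher. Among the lower were the inhibitory Smad6 (2.47 ± 0.313 to 0.927 ± 0.150 TPM) and Smad7 (5.70 ± 0.254 to 3.04 ± 0.600 TPM). Of 18 tested in 3-month WTiMOS MPP3, where Id1 fell, limma called 0 at the adjusted threshold and 4 had an unadjusted p under 0.05. In 24-month MPP3 5 were called higher and 1 lower, the lower being the BMP receptor gene Bmpr1a (12.6 ± 0.826 to 6.30 ± 0.925 TPM, log2 -0.91). Notch genes were called for 1 higher and 5 lower of 17 in KOiMOS, 2 and 1 of 16 in 3-month WTiMOS MPP3 and 4 and 1 of 16 at 24 months. Dtx4, a regulator of Notch, fell in both WTiMOS MPP3 tables, from 5.29 ± 0.924 to 1.49 ± 0.173 and from 4.94 ± 0.348 to 1.07 ± 0.045 TPM. The median of the list was log2 0.11 and 0.20 in these tables, against 0.10 and 0.18 for all genes.

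Among the relatives of Hes1 and the Groucho corepressors, 3 were called higher and 3 lower of 8 in KOiMOS, where Tle2 fell from 48.2 ± 3.32 to 23.1 ± 1.55 TPM (log2 -1.03) and Hes6 rose from 103 ± 1.91 to 122 ± 3.32 (log2 0.23). Tle2 went the other way in 3-month WTiMOS MPP3, from 17.5 ± 3.31 to 30.6 ± 3.99 TPM (log2 0.78, adjusted p = 0.0156), the 1 call of 8 there. Hes6, an inhibitor of Hes1, rose in 24-month MPP3 from 19.2 ± 2.42 to 49.3 ± 13.02 TPM (log2 1.29). Coactivators, corepressors and turnover genes of E proteins were called for 3 higher and 3 lower of 11 in KOiMOS and 3 and 0 in 24-month MPP3, Crebbp, Cbfa2t3 and Stub1, by log2 0.56, 0.48 and 0.42. In 3-month WTiMOS MPP3 limma called 0 of 11 and 1 had an unadjusted p under 0.05. Of 12 other Id and class II genes at most 2 could be tested in a table. Tcf15, a partner of E proteins in early mesoderm, rose in 24-month MPP3 from 1.13 ± 0.139 to 5.01 ± 1.30 TPM (log2 1.48, adjusted p = 0.000157), and Ascl2 fell from 2.49 ± 0.434 to 0.877 ± 0.211 (log2 -0.89).

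In MPP4 the calls of these 4 lists turned on the scaling. At 3 months BMP and TGF-beta genes went from 0 higher and 12 lower of 17 as deposited to 5 and 2 after rescaling, Notch genes from 0 and 13 of 17 to 2 and 5, cofactors from 0 and 10 of 11 to 1 and 6, and Hes1 relatives with Groucho genes from 0 and 7 of 8 to 0 and 1. At 24 months the same lists went from 13 and 1 of 18 to 3 and 2, from 9 and 1 of 16 to 1 and 4, from 7 and 0 of 11 to 2 and 0, and from 7 and 1 of 8 to 3 and 1. Dtx4 fell in 3-month MPP4 under both scalings, from 4.61 ± 0.531 to 0.742 ± 0.078 TPM (log2 -1.68, rescaled -1.16). Hes6 fell there from 93.1 ± 3.89 to 25.3 ± 5.79 TPM and rose at 24 months from 33.7 ± 2.61 to 85.7 ± 17.8, called in the same direction after rescaling (log2 -1.05 and 0.86).

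**Figure D5:**
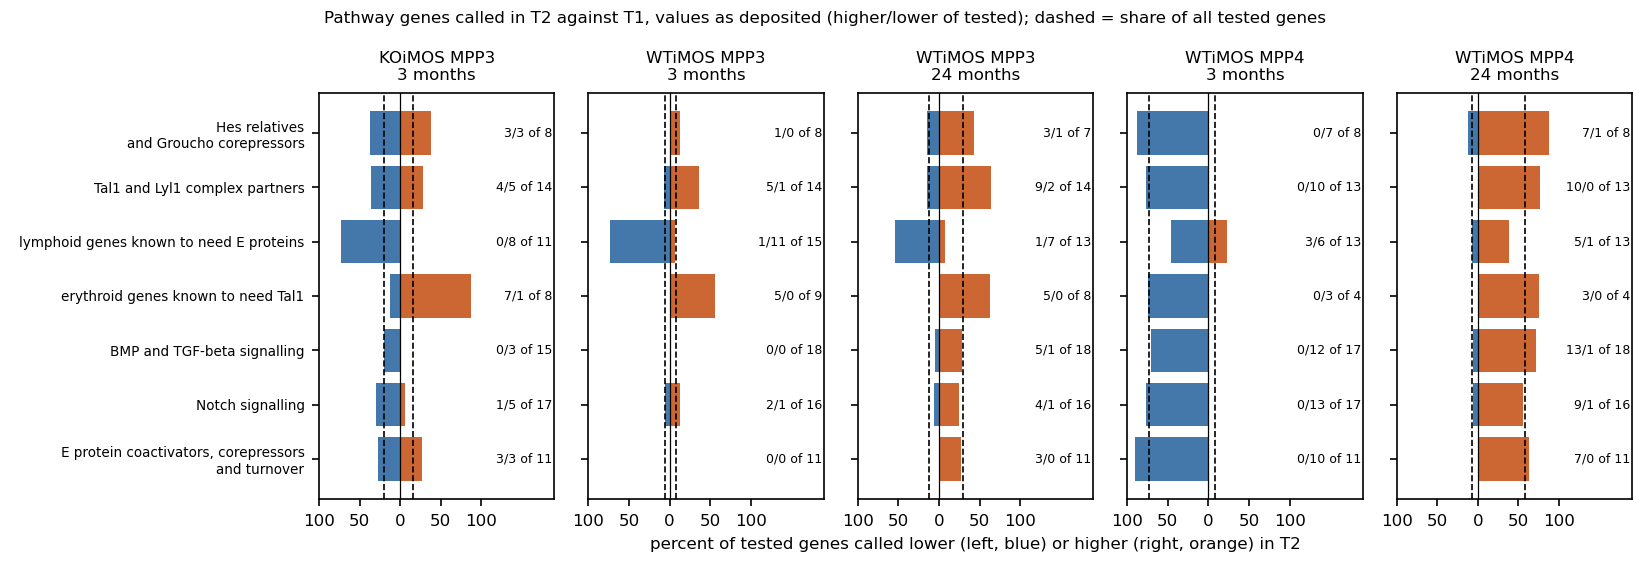
Share of the tested genes of 7 pathway lists called lower (blue, to the left) or higher (orange, to the right) in T2 of each table, as deposited, with dashed lines at the shares of all tested genes and the counts as higher/lower of tested. Lymphoid genes known to need E proteins reach further left than the background in the 3 MPP3 tables and erythroid genes further right, while in MPP4 most bars end near the dashed lines and, for the lymphoid list, rescaling turned the counts.

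The genes whose levels ran most like a member were found by Pearson's r over the 30 libraries after centring each gene on its table, among 9805 genes. These points share their T1 and T2 groups and the shift of all genes in MPP4, so r is a description. Id1 ran most like Ly6c2, Rgcc and Ctsg (r = 0.97, 0.94 and 0.94), Id2 like Spc25, Sva and H2-Eb1 (0.89, 0.85 and 0.84), and Tal1 like Hk3, Vcam1 and Axl (0.94, 0.94 and 0.93). Ly6c2 and Ctsg are on the list of neutrophil and monocyte markers given with Id1. Vcam1 and Axl are on the list of macrophage markers given with Tal1. Tcf3 ran most like Eef2k, Wdr41 and Slfn9 (0.93, 0.93 and 0.92), Tcf12 like Pbrm1, Rbbp6 and Kdm5a (0.90 each) and Lyl1 like Tob2, Repin1 and Ung (0.89, 0.86 and 0.86). Tcf4 had the loosest neighbours, Gnaq, Rps3 and Tra2a (0.78, 0.77 and 0.75). Among the members, Id1 ran against Tal1 (r = -0.76) and Lyl1 (-0.67), while Tal1 ran with Lyl1 (0.72) and Tcf3 (0.67), and Id1 and Id2 ran together only in part (0.40).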

How the data were processed

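RNA from sorted MPP3 and MPP4 cells was amplified with a low-input cDNA kit and sequenced, per the labels' protocols. The authors deposited TPM for each gene in 5 tables of 6 libraries. Per the submitters' processing notes, HISAT2, StringTie, featureCounts and DESeq2 were used with the mm10 build. Not given in the sources used here are their versions, the tool that made the TPM, and whether the 5 tables were scaled together. TPM keep no depth, so no counting interval can be given, and the 3 libraries of a group limit the precision.

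Each table was fitted alone with limma 3.58.1 (R 4.3.3) on log2(TPM + 1) with a trend and robust variance, over the 11288 to 12100 genes that reached 1 TPM in 3 or more of its 6 libraries. Adjusted p are Benjamini-Hochberg values over all genes tested, called under 0.05. Differences of a step between tables used each table's own moderated variance with Satterthwaite degrees of freedom, for 5 pairs of tables. An exact permutation test of 3 against 3 libraries cannot go below p = 0.1 and was not used. Alternatives were a pseudocount of 0.1, no filter on low values, median-ratio rescaling within a table, 1 limma fit over all 30 libraries with array weights, a replicate block and leaving out each library. The scripts were tested on simulated data.

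Members and gene lists were chosen with earlier results of these data known. Besides the members and Bcl11a, the text names up to 3 called genes of smallest adjusted p for each pathway list and table, the 3 genes most like each member, and markers beside a result. Tle5, Epb42 and Ahsp of the pathway lists were not found under these symbols. Gene positions are from GENCODE vM21 (GRCm38), and promoter letters from RefSeq. Not all E box matches are reported here.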

Additional observations from a re-analysis of the deposited data

Results flagged for a closer look

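In 20 cases the T2 minus T1 step of a member differed between a pair of tables by a called amount (limma, adjusted p under 0.05, values in log2 as deposited). Between the libraries labelled KOiMOS and WTiMOS these were Id1 (1.76) and Id2 (3.68). Between 24 and 3 months they were Id3 (2.02), Tcf3 (1.02) and Lyl1 (0.98) in MPP3, and Id1 (-0.99), Id2 (-0.68), Id3 (-0.60), Tcf3 (2.10), Tcf12 (1.59), Tal1 (0.84), Lyl1 (0.51) and Hes1 (-0.67) in MPP4. Between MPP4 and MPP3 they were Id2 (1.33), Id3 (1.66), Tcf3 (-1.02), Tcf12 (-1.05) and Tal1 (-1.06) at 3 months and Id3 (-0.96) and Tal1 (-0.59) at 24 months. After rescaling, Tal1 and Lyl1 changed sign for age in MPP4 (-0.30 and -0.67), and 4 of these cases kept their sign and were no longer called. As deposited, the shares of all genes called were 22.2% for KOiMOS against WTiMOS, and 18.2% in MPP3 and 87.0% in MPP4 for age. For MPP4 against MPP3 they were 71.7% at 3 months and 22.6% at 24 months.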

How the results depend on the processing

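Median-ratio rescaling moved the MPP4 results and few others. It turned the sign of the 3-month steps of Id3 (log2 0.34, not called under either scaling), Tcf4 (0.68), Tal1 (0.61) and Lyl1 (0.72), of the 24-month step of Tcf4 (-0.37), and of the age differences in MPP4 of Tcf4 (-1.05), Tal1 (-0.30) and Lyl1 (-0.67). Genes called went from 9176 to 5901 in 3-month MPP4 (2879 higher, 3022 lower) and from 7407 to 3868 in 24-month MPP4 (1690 higher, 2178 lower). Called differences of the step went from 9640 to 5829 for age in MPP4 and from 7726 to 4434 between MPP4 and MPP3 at 3 months, and members called between MPP4 and MPP3 at 24 months from 2 to 5. That count was 1 with a pseudocount of 0.1 or without the filter. In 3-month WTiMOS MPP3 1682 genes were called, and 1056 without the filter. Without the filter the KOiMOS against WTiMOS difference was called for 4 members in place of 2, since more members were then tested. The fit over all 30 libraries called 5 members in KOiMOS in place of 3, adding Id1 (adjusted p = 0.00804) and Tcf3 (0.00397). It lost Id2 in 3-month MPP4 (0.0562).

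Without Id2 the log2 change of the Id to E protein ratio turned from 2.26 to -0.026 in KOiMOS and from 0.71 to -0.19 in 3-month MPP4, and went from -1.38 to -1.67 in 3-month MPP3 and from -1.30 to -1.79 in 24-month MPP4. In 24-month MPP3 it was -1.24, -1.01 without Id1 and -1.50 without Id3.

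Leaving out each library in turn gave 3393 to 4395 called genes in KOiMOS, 950 to 2191 in 3-month WTiMOS MPP3 (950 without T1 replicate 1, 1011 without T1 replicate 2), 3492 to 5144 in 24-month MPP3, 8660 to 9175 in 3-month MPP4 and 6403 to 7252 in 24-month MPP4. Members called were 3 to 5 in KOiMOS (5 without T2 replicate 3), 3 to 5 in 3-month MPP4 and 7 to 8 in 24-month MPP4. Called differences were 1693 to 2866 genes and 2 to 3 members for KOiMOS against WTiMOS, 1290 to 2340 genes for age in MPP3 and 1563 to 2958 genes and 1 to 3 members for MPP4 against MPP3 at 24 months, the lowest gene counts of these last 2 without 24-month MPP3 T1 replicate 3. The causes were not tested.

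Same-numbered T1 and T2 libraries correlated in their deviations from the group means at r = -0.197 to 0.127, with 1 pair over 0.1. Pairs of different numbers reached r = 0.164. These values gave no sign that the numbers pair the libraries, but with 3 libraries in a group they cannot exclude it. With a replicate block, Id3 in 3-month MPP4 was called (adjusted p = 0.0404), Hes1 in 24-month MPP4 was not (0.0598), and 1 member in place of 2 differed between MPP4 and MPP3 at 24 months. Depth is unknown, and Id3 in KOiMOS and Hes1 in 3-month MPP3 stood too near 1 TPM to be tested.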
